A study of Homo sapiens with 4 samples.

Results

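The genes described here are 10 angiogenic and lymphangiogenic factors and coreceptors: VEGFA, VEGFB, VEGFC, PGF, PDGFA, FGF2, ANGPTL4, THBS1, NRP1 and NRP2. They were chosen by symbol from a deposited table of 35211 genes, all 10 were found, and all 10 passed the filter on low counts. RNA had been sequenced in 4 libraries, 1 per group, after ribosomal RNA depletion. The groups were DU145 cells with a negative control plasmid, DU145 cells with a circ0003553 overexpression plasmid, PC3 cells with the negative control plasmid and PC3 cells with the circ0003553 plasmid. DU145 and PC3 are established human prostate cancer cell lines, circ0003553 is a circular RNA, all 4 sample titles carry the gene name RCAN3, and each group is a single library of a single line, so no group has a replicate.

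Vascular endothelial growth factors are secreted ligands of 3 receptor tyrosine kinases. VEGFA signals through KDR and FLT1, VEGFB and PGF bind FLT1, and VEGFC signals mainly through FLT4, which drives the growth of lymphatic vessels. The neuropilins NRP1 and NRP2 are coreceptors that bind both VEGF ligands and class 3 semaphorins. Carcinoma cells are a common source of VEGFA, which is induced by hypoxia.

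Library totals ranged from 33438509 to 39488890 counts, so that a floor of 3 counts corresponded to 0.076 to 0.0897 counts per 1000000 (CPM). Of counts from 1 to 20, between 70.3% and 75.3% were even in each library. Counting both mates of a pair would make counts even and the counting intervals too narrow, and whether that was done was not tested. RCAN3 had 639 counts in the DU145 control library, 816 with circ0003553, and 1212 and 3798 in the same order in PC3, and a gene count cannot tell the circular from the linear transcript. The epithelial markers EPCAM, KRT8 and KRT18 were present in all 4 libraries (at least 2732 counts each), whereas CDH1 had 84 and 108 counts in PC3. CLDN4, of the same list, was instead lower in DU145 (169 counts with control, 199 with circ0003553) than in PC3 (1981 and 2990, respectively). Defining markers of other cells were at 0 to 2 counts for PTPRC of leukocytes, 0 to 14 for VWF and 0 to 6 for CDH5 of endothelium (PECAM1, ROBO4 and EGFL7 of that list were higher and are given with the receptors), and 4 to 10 for COL1A2 of fibroblasts. The summed RPKM (reads per kilobase per 1000000 counts) of the 5 leukocyte markers found of 7 ran from 92.6 to 236, nearly all from CD68, and that of the 8 fibroblast and smooth muscle markers from 1.18 to 4.95, with COL1A1 at 124 to 1519 counts.

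Promoters are shown for the 2 genes with the highest fitted plasmid difference, VEGFC and ANGPTL4, and for the gene with the largest difference between the lines, NRP2. Those of ANGPTL4 and NRP2 lie inside the spans of the counted genes, which begin at 8363289 and 205681990. The RefSeq starts used for these genes are thus not their outermost starts. Each stretch holds the 240 bases that end 10 bases before the RefSeq start, read 5′ to 3′ on the gene's own strand (RefSeq, GRCh38.p14). Capitals mark matches on either strand to the GC box GGGCGG, to the hypoxia response core ACGTG and to the TATA box TATAAA.
VEGFC (chr4:176792933-176793172, minus strand): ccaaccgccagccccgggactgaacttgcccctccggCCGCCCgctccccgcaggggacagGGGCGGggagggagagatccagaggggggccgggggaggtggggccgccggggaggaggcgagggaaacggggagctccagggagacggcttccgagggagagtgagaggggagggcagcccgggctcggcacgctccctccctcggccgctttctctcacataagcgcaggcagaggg
ANGPTL4 (chr19:8363905-8364144, plus strand): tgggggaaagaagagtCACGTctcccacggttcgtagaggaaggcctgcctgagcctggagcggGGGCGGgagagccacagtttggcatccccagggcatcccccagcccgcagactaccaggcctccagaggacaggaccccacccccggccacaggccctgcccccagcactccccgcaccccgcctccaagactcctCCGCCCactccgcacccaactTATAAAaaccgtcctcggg
NRP2 (chr2:205682251-205682490, plus strand): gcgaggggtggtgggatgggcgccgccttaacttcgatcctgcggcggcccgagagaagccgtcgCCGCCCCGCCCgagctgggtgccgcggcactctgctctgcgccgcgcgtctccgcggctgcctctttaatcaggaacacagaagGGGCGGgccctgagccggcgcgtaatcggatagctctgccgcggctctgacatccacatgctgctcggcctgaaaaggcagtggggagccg

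The table of promoters matched 8 of the 10 symbols, all but VEGFA and NRP1, with 12 windows. PDGFA and PGF each supplied multiple windows, and those of PGF overlap in part, so the 12 are not independent. All 12 windows held a GC box, against 41.4% of 35116 windows of all genes, and the 12 were 67.5% to 82.1% G and C against a median of 57.9%. Of these 12, only the ANGPTL4 window held the ACGTG core, which 17.8% of all windows hold, or a TATAAA box, held by 10.6%. None of the 12 held the AP-1 motif TGANTCA (6.43% of all windows) or an interferon response motif, GAAA followed after any 2 bases by GAAA again (2.86%). In VEGFC the GC boxes began 213 and 189 bases before the start, and in ANGPTL4 the TATAAA box began 29 bases before it. These are matches of letters in a window and show no binding.

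The first comparison asked which of the 10 genes differed between the plasmids. VEGFC, the lymphangiogenic ligand, rose with circ0003553, by 1.69-fold across both lines, and was the 1 gene of the 10 that passed the test. ANGPTL4 had a fitted ratio of 1.77 that missed the threshold, PDGFA was 1.91-fold higher in DU145 and 1.07-fold in PC3, and the other 7 members had fitted ratios of 0.819 to 1.24. Of all 21731 genes tested, 0.465% were called in either direction 0.396% as higher and 0.0690% as lower with circ0003553. The median fitted log2 difference was -0.01 over the 10 members and 0.00 over all genes tested. The fitted differences come from edgeR's quasi-likelihood test with the cell line as a block and p-values adjusted by Benjamini and Hochberg over all genes. The 2 libraries per plasmid are 1 of DU145 and 1 of PC3, so n = 2 counts lines and not replicate cultures. In this fit 1 residual degree of freedom remains, and it holds a gene's disagreement between the lines in the plasmid difference. Most of the information behind each standard error (SE) is borrowed from other genes. Spread between cultures of the same line and plasmid cannot be separated from that disagreement, since each group is 1 library. The labels do not say whether the plasmids of a line were given to independently grown cultures. Within a line, 3 of the 10 members had a ratio of at least 1.5 in DU145 and 2 of 10 in PC3. Of all genes with at least 50 counts in the line, 4.47% and 3.51% did. NRP2, with 16 and 20 counts in DU145, falls under that count there. The planned cut was 2-fold and not 1.5, and the members were chosen with earlier results of these data known. These shares therefore show no enrichment. None of the 10 was 2-fold apart in either line. Of all genes with at least 50 counts, 1.03% were at least 2-fold higher and 0.992% lower with circ0003553 in DU145, and 0.824% and 0.334% in PC3.

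**Figure D1:**
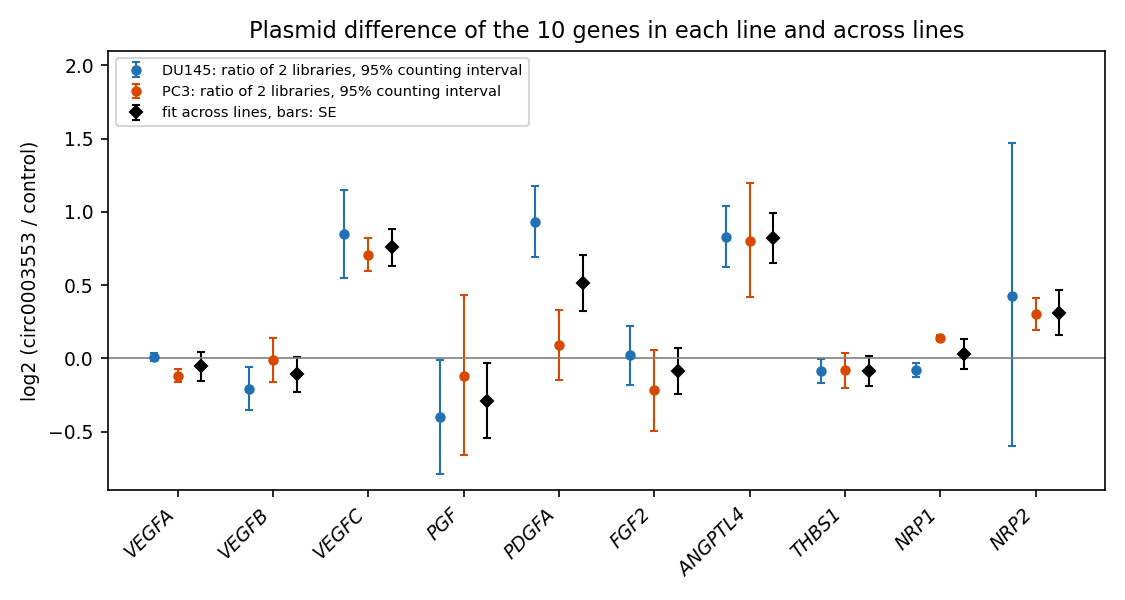
The log2 ratio of circ0003553 to control for each of the 10 genes, in DU145 (blue), in PC3 (orange) and fitted across both lines (black diamonds). Bars are 95% exact binomial counting intervals within a line and the SE of the fit; VEGFC and ANGPTL4 lie above 0 in both lines, and PDGFA lies at 0.93 in DU145 and 0.09 in PC3.

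Among the VEGF ligands, VEGFC lies on the minus strand of chromosome 4 from 176683538 to 176792727 (hg38, as are all positions below). The DU145 control library held 151 counts of it and the circ0003553 library 253, while the PC3 libraries held 991 and 1944. After scaling by trimmed mean of M-values (TMM), its level was 3.82 and 6.87 CPM in DU145 and 30.7 and 50.1 CPM in PC3, so both PC3 libraries lay above both DU145 libraries and the circ0003553 library was the higher one in each line. The circ0003553 to control ratio was 1.80 in DU145, with a 95% exact conditional binomial interval of 1.47 to 2.22 for counting error only. In PC3 it was 1.63 (1.51 to 1.77). With counts halved, as if each pair had been counted as 2, the intervals were 1.34 to 2.42 and 1.46 to 1.82. The fitted log2 difference was 0.76 ± 0.13 (SE, n = 2 for each plasmid), at an adjusted p of 0.0121 by edgeR. VEGFC shares no exon base with another gene of the table. The call was lost with limma-voom (adjusted p = 0.175), when low counts were left unfiltered (0.362) and when cell line was left out of the model (0.9999), and adjusted p ranged from 0.00699 to 0.9999 over 9 alternatives, with log2 differences of 0.73 to 0.77.

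VEGFA, the main ligand of blood vessel growth (chromosome 6, 43770184 to 43786487, plus strand), had 25615 and 24003 counts in the DU145 control and circ0003553 libraries and 7016 and 7769 in PC3. Both DU145 libraries were thus far above both PC3 libraries, at 648 and 652 CPM against 217 and 200.1 CPM. Between the plasmids its ratio was 1.01 in DU145 (interval 0.989 to 1.02) and 0.922 in PC3 (0.893 to 0.952). The fitted log2 difference was -0.05 ± 0.10 (SE, n = 2, adjusted p = 0.94, edgeR). VEGFB, a ligand of FLT1 (chromosome 11, 64234538 to 64238793, plus strand), reached 852 and 688 counts in the DU145 libraries against 654 and 779 in those of PC3, and its CPM overlapped between the lines, while the control libraries (21.6 in DU145 and 20.2 in PC3) lay above those with circ0003553 (18.7 and 20.1). PGF, placental growth factor (chromosome 14, 74941834 to 74955784, minus strand), had the fewest counts of the 4 member ligands (VEGFD, which is no member, had 4 to 6 per library), at 136 and 96 in DU145 and 56 and 62 in PC3. Neither passed the test, with log2 differences of -0.11 ± 0.12 for VEGFB (adjusted p = 0.872) and -0.29 ± 0.25 for PGF (0.828). The counting interval of the PGF ratio was 0.578 to 0.992 in DU145, or 0.513 to 1.11 with halved counts, and 0.632 to 1.35 in PC3.

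Per length of transcript, on the RPKM scale, the ligands made up different mixtures in the 2 lines. Of the summed RPKM of VEGFA, VEGFB, VEGFC and PGF, VEGFA took 73.6% in the DU145 control and 74.6% in the DU145 circ0003553 library, and 36.6% and 29% in PC3. VEGFC took 2.59% and 4.69% in DU145 and 30.8% and 43.3% in PC3, so that it was the largest share only in the PC3 circ0003553 library. VEGFB took 19.98% to 31.9% and PGF 0.56% to 0.946%. The deposited length of VEGFA is the union of all its exons, 14431 bases, whereas its longest coding transcript in GENCODE 29 has 3535 bases. With that length for each gene, VEGFA was the largest share in all 4 libraries, at 58.8% to 91.0%, and VEGFC took 0.914% and 1.64% in DU145 and 16.2% and 25.2% in PC3. The share of VEGFC was higher with circ0003553 in each line, and higher in PC3 than in DU145, on both lengths.

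**Figure D2:**
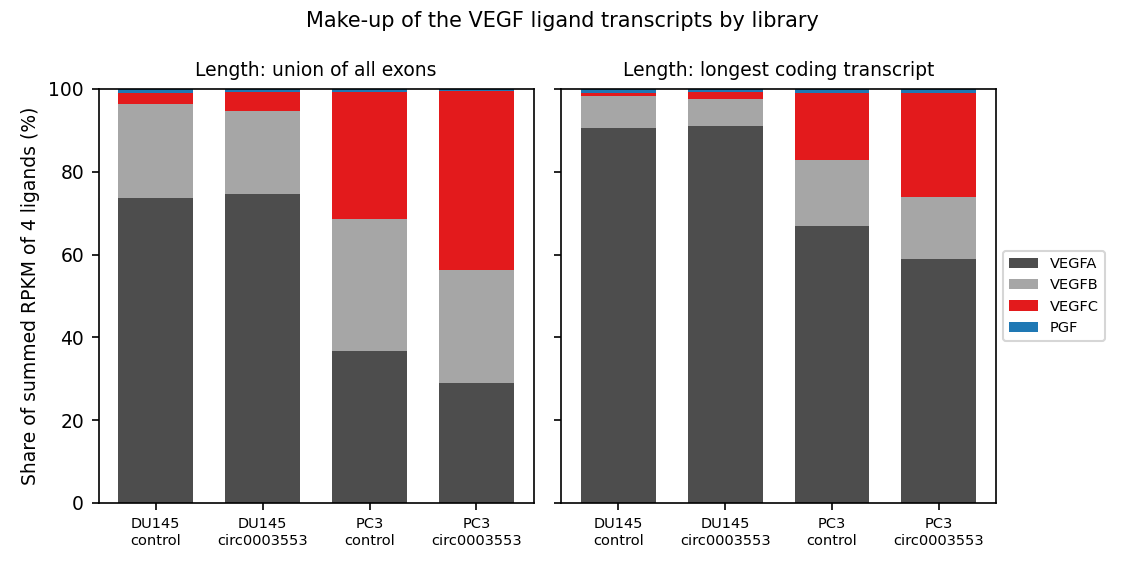
Share of each VEGF ligand in the summed RPKM of the 4 ligands, per library, with the exon union as length (left) and the longest coding transcript (right). VEGFC (red) takes 2.59% to 4.69% in DU145 and 30.8% to 43.3% in PC3 on the left, and 0.914% to 25.2% on the right.

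Of the other secreted factors, ANGPTL4 encodes an inhibitor of lipoprotein lipase that is induced by PPAR receptors and by hypoxia (chromosome 19, 8363289 to 8374373, plus strand). It had 305 and 505 counts in the DU145 control and circ0003553 libraries and 84 and 176 in PC3. Its level was 7.72 and 13.7 CPM in DU145 and 2.60 and 4.53 CPM in PC3, the circ0003553 library being higher in each line and both DU145 libraries above both PC3 libraries. The ratio was 1.78 in DU145 (interval 1.54 to 2.06), and in PC3 it was 1.75 (1.34 to 2.29). The fitted log2 difference, 0.82 ± 0.17 (SE, n = 2; adjusted p = 0.0544, edgeR), missed the threshold and passed it with DESeq2's scaling by ratios to a median library in edgeR (0.0399). The other 7 alternatives gave adjusted p of 0.0798 or more.

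PDGFA, a ligand of the PDGF receptor PDGFRA (chromosome 7, 497258 to 520296, minus strand), had 224 counts in the DU145 control library, 398 with circ0003553, and 261 and 334 in the PC3 libraries. The DU145 circ0003553 library was the highest of the 4, at 10.8 CPM against 5.67 in its control and 8.07 and 8.60 in PC3. The ratio was 1.91 in DU145 (interval 1.62 to 2.26), against 1.07 in PC3 (0.904 to 1.26). The fitted log2 difference was 0.51 ± 0.19 (SE, n = 2; adjusted p = 0.435, edgeR), and a difference between the lines in this ratio could not be tested, since no residual degree of freedom would remain.

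FGF2, basic fibroblast growth factor (chromosome 4, 122826708 to 122898236, plus strand), was counted 429 and 405 times in DU145 and 214 and 221 times in PC3. THBS1, thrombospondin 1, a secreted inhibitor of vessel growth (chromosome 15, 39581079 to 39599466, plus strand), was counted 2529 and 2217 times in DU145 and 1104 and 1253 times in PC3. For both genes the DU145 libraries lay above the PC3 libraries, and the plasmids of a line differed little. Their fitted log2 plasmid differences were -0.08 ± 0.16 for FGF2 (adjusted p = 0.941, edgeR) and -0.08 ± 0.10 for THBS1 (0.89). FGF2 shares 804 exon bases with NUDT6 on the other strand, which had 193 to 263 counts, and the strand setting is not stated, so reads of the pair cannot be told apart.

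The neuropilin coreceptors were both far higher in PC3. NRP1 (chromosome 10, 33177492 to 33336262, minus strand) had 7992 and 7046 counts in the DU145 control and circ0003553 libraries and 34280 and 45240 in PC3. NRP2, the coreceptor linked to VEGFC and lymphatic vessels (chromosome 2, 205681990 to 205798133, plus strand), was counted 16 and 20 times in DU145 and 1172 and 1734 times in PC3. Between the plasmids the ratio of NRP1 was 0.947 in DU145 (interval 0.917 to 0.978) and 1.10 in PC3 (1.08 to 1.12), and that of NRP2 was 1.34 in DU145 (0.661 to 2.77) and 1.23 in PC3 (1.14 to 1.33). Neither passed the test, with fitted log2 differences of 0.03 ± 0.10 for NRP1 (adjusted p = 0.973, edgeR) and 0.31 ± 0.15 for NRP2 (0.59).

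The second comparison set the lines against each other, over 2 libraries per line that differ in plasmid. VEGFC, NRP1 and NRP2 were higher in PC3, by 7.61-fold, 5.65-fold and 84.9-fold. VEGFA, ANGPTL4, THBS1, PGF and FGF2 were lower in PC3, with fitted PC3 to DU145 ratios of 0.321, 0.333, 0.535, 0.554 and 0.562. VEGFB and PDGFA were not called. The 8 of 10 members called stand beside 66.0% of all genes tested, the 3 higher in PC3 beside 33.1% and the 5 lower in PC3 beside 32.9%, so the share of members called is near that of the table. The 3 of 10 that were called and at least 4-fold apart (VEGFC, NRP1 and NRP2) stand beside 18.5%. The median absolute log2 difference was 1.24 over the members and 0.75 over all genes. In bulk RNA, fewer cells with a transcript and less transcript per cell cannot be told apart, and line and any handling that differed between the lines cannot be told apart either.

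The fitted log2 differences (PC3 over DU145, ± SE, n = 2 libraries per line, edgeR) were 6.41 ± 0.19 for NRP2 (adjusted p = 6.51e-13), 2.93 ± 0.13 for VEGFC (7.28e-11) and 2.50 ± 0.11 for NRP1 (5.33e-11). They were -1.64 ± 0.10 for VEGFA (2.23e-09), -1.59 ± 0.17 for ANGPTL4 (1.32e-06), -0.90 ± 0.10 for THBS1 (2.06e-06), -0.83 ± 0.16 for FGF2 (0.000307) and -0.85 ± 0.26 for PGF (0.00928). The direction was the same between the control libraries and between the circ0003553 libraries for 8 of 10 members. The exceptions were VEGFB and PDGFA. PDGFA was 1.43-fold higher in PC3 between the control libraries (interval 1.19 to 1.71), and between the circ0003553 libraries the PC3 to DU145 ratio was 0.796 (0.686 to 0.923). The call for PGF was lost with DESeq2 (adjusted p = 0.199), and the other 7 held under every alternative in which the gene was fitted.

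**Figure D3:**
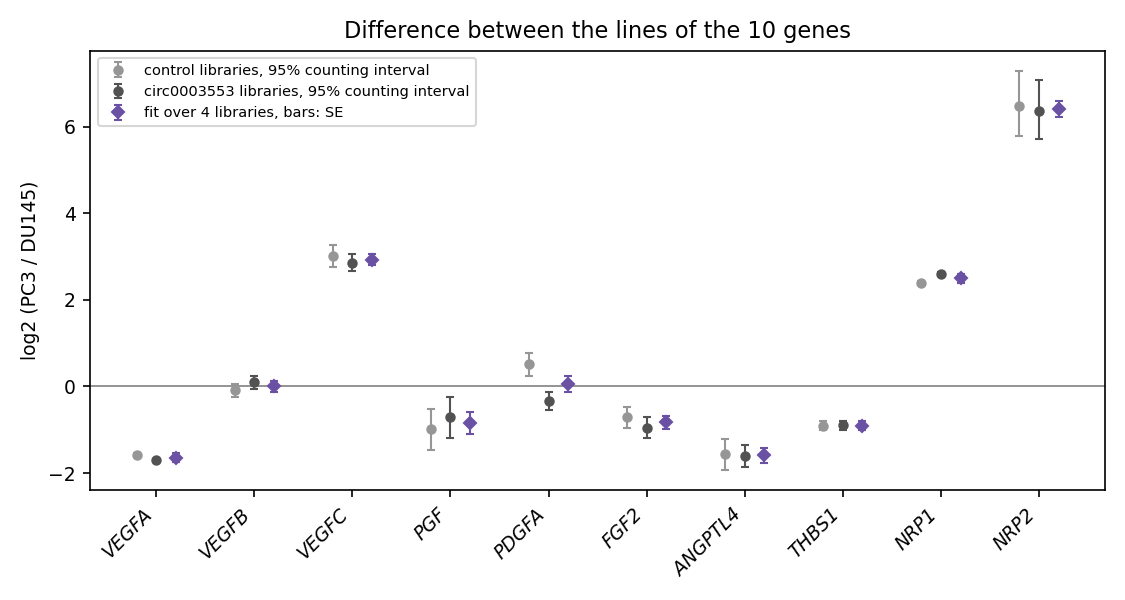
The log2 ratio of PC3 to DU145 for each of the 10 genes, between the control libraries (light grey), between the circ0003553 libraries (dark grey) and fitted over 4 libraries (purple). Bars are 95% counting intervals or the SE of the fit; NRP2 lies at 6.41, VEGFC at 2.93 and NRP1 at 2.50, and 5 genes lie between -1.64 and -0.83.

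In order of deposited RPKM, the DU145 libraries held VEGFA first (46.7 and 45.6 RPKM in control and circ0003553), then NRP1 (18.2 and 16.8), VEGFB (14.5 and 12.2), THBS1 (7.26 and 6.64) and ANGPTL4 (3.23 and 5.58). VEGFC (1.64 and 2.87), PDGFA (1.42 and 2.63) and FGF2 (1.66 and 1.64) followed and overlapped, VEGFC with PDGFA and PDGFA with FGF2, before PGF (0.60 and 0.442) and NRP2 (0.0303 and 0.0395). The PC3 libraries held NRP1 first (89.0 and 99.4 RPKM), then VEGFC (12.2 and 20.3) and VEGFA (14.5 and 13.6), which overlapped, and VEGFB (12.7 and 12.8). THBS1 (3.61 and 3.46), NRP2 (2.52 and 3.16), PDGFA (1.88 and 2.04), ANGPTL4 (1.01 and 1.80), FGF2 (0.945 and 0.826) and PGF (0.281 and 0.263) came after them, each above the next in both libraries. VEGFC in the PC3 control library lay below VEGFB. The RPKM of neighbouring genes did not overlap between the libraries of a line in 15 of 18 pairs, and in 14 of 18 with the longest coding transcript as length, where VEGFA passed VEGFC in PC3 (59.4 and 55.7 against 14.4 and 23.9 RPKM).

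**Figure D4:**
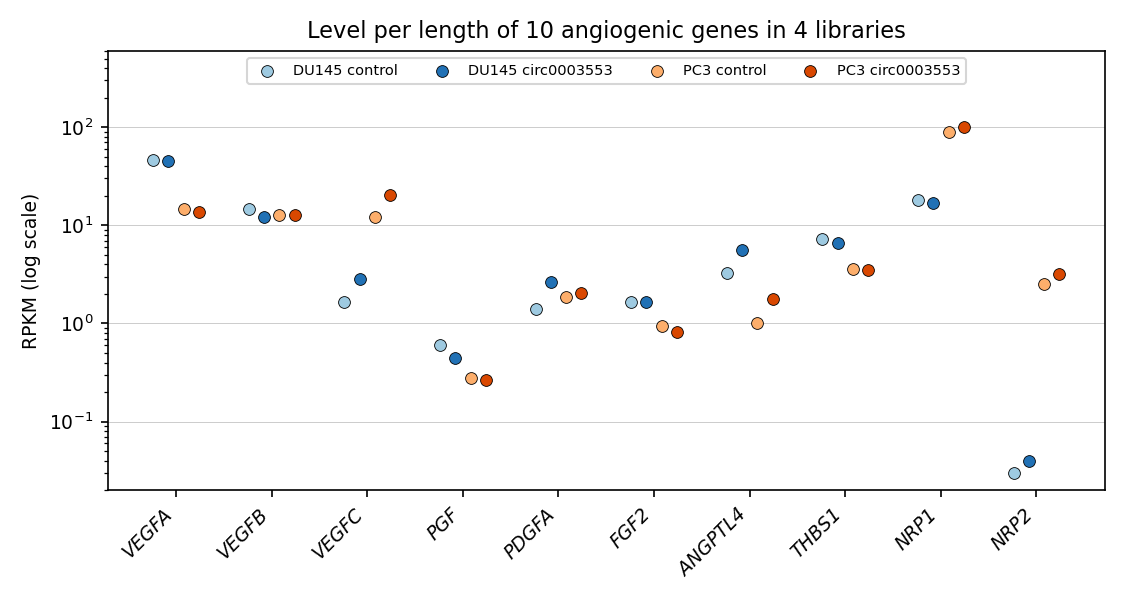
Deposited RPKM of the 10 genes in each of the 4 libraries, on a log axis, 1 point per library (blue for DU145, orange for PC3, darker for circ0003553). VEGFA lies highest in DU145 and NRP1 in PC3, and NRP2 runs from 0.0303 in DU145 to 3.16 in PC3.

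The receptors of these ligands were likewise found in different lines. KDR, the main receptor of VEGFA, had 0 and 2 counts in the DU145 control and circ0003553 libraries and 1564 and 1624 in PC3. It was at least 638-fold higher in the PC3 control library, against a floor of 3 counts per library. FLT4, the receptor of VEGFC, was counted 809 and 691 times in DU145 and 0 times in PC3, which puts DU145 at least 221-fold higher between the control and at least 243-fold higher between the circ0003553 libraries. FLT1 was at 0 except for 12 counts in the control library of PC3. Both called receptors passed the test between lines (adjusted p = 2.67e-13 for KDR and 3.2e-11 for FLT4, edgeR). PC3, the line with more VEGFC, NRP1 and NRP2, was thus the line without FLT4 counts. Endothelial markers went both ways between the lines. PECAM1 had 585 and 595 counts in PC3 against 10 and 14 in DU145, and ROBO4 455 and 683 against 40 and 97. EGFL7 had 90 and 77 counts in PC3 against 534 and 532 in DU145, VWF was at 0 in both PC3 libraries, and CDH5 at 3 and 0. The summed RPKM of the 9 endothelial markers found of 10 listed ran from 6.28 to 6.85 over the 4 libraries, of which EGFL7 made up 5.50 and 5.72 in DU145, and PECAM1 (2.25 and 1.94) with ROBO4 (1.93 and 2.46) the larger part in PC3. Their part in the receptor and neuropilin differences was not tested.

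**Figure D5:**
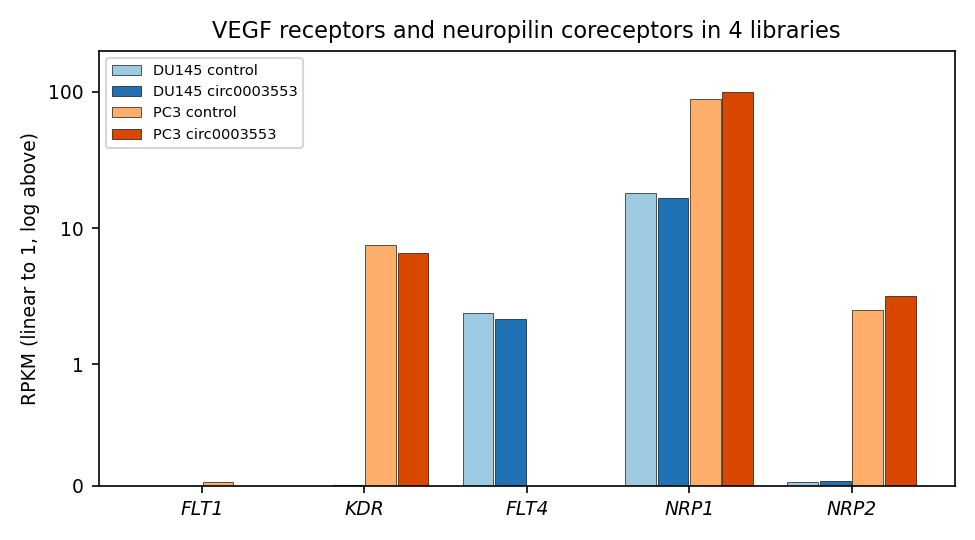
RPKM of the VEGF receptors FLT1, KDR and FLT4 and of the coreceptors NRP1 and NRP2 per library, on an axis that is linear up to 1 and logarithmic above. KDR is seen in PC3 (7.47 and 6.57 RPKM) and FLT4 in DU145 (2.40 and 2.14), and NRP1 is the highest bar group in both lines.

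Other genes of these pathways came from 16 lists with 113 genes in the table, of which 96 were tested. Between the plasmids edgeR called none of the 96 (15 at an unadjusted p under 0.05, where 8.88% of all genes were), DESeq2 called CYR61 (adjusted p = 0.0323, named after its values were seen), edgeR with DESeq2's scaling called PLIN2 (0.0458), and limma-voom and the legacy quasi-likelihood fit called none. PLIN2 is a lipid droplet gene and, like ANGPTL4, a PPAR target. It was counted 1086 and 1582 times in DU145 and 722 and 1164 times in PC3, with a fitted log2 difference of 0.54 ± 0.11 (adjusted p = 0.0578, edgeR). The median over the 8 PPAR receptors and targets tested was 0.05. Other targets lay at 0.11 for CPT1A, 0.03 for ACADVL, -0.01 for PDK4 and -0.30 for FABP4, which had 0 counts in DU145. A shared PPAR response was not tested. ADM, adrenomedullin, was at 15 and 22 in DU145 and 50 and 124 in PC3 (log2 difference 0.95 ± 0.33, adjusted p = 0.376). FGF1 was at 20 and 75 in DU145 and 125 and 234 in PC3 (2.01-fold, adjusted p = 0.233). None of the 11 hypoxia targets tested passed: their median log2 difference was 0.03, from -0.24 for the glucose transporter SLC2A1 to 0.39 for NDRG1. Nor did any of 9 genes of the HIF pathway, from -0.26 for EPAS1 to 0.22 for HIF1A.

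At the lowest ends of the other lists the log2 plasmid differences were -1.99 for THBS2 (2 to 12 counts per library), -0.60 for SEMA3G, -0.72 for FGFR2, -0.35 for CXCL1, -0.33 for PPARA, -0.28 for PDGFRL, -0.23 for ANGPTL8, -0.19 for KDR, -0.10 for TIE1, -0.07 for PLXNA4, -0.03 for COL18A1, -0.01 for ADAMTS3 and 0.10 for FGF5. At the highest ends they were 0.53 for THBS4, 0.50 for PLXNA2, 0.49 for ADAMTS1, 0.47 for SEMA3A, 0.44 for ANGPT2, 0.39 for PCSK6, 0.21 for PDGFB and ANGPTL2, 0.02 for FGFR1 and -0.12 for FLT4, of the 2 receptors tested. None of these passed the test. The lines' own log2 ratios, which the fit comes close to when a library of the other line is left out, were often unequal. They were -1.41 in DU145 and -0.11 in PC3 for SEMA3G, -0.82 and -0.10 for CXCL1, 0.97 and 0.20 for SEMA3A, 0.29 and 0.99 for PCSK6, and 1.90 and 0.63 for FGF1. For FGFR2, at 2 and 6 counts in PC3, they had opposite signs, -0.97 and 0.85. The fits for KDR and ADAMTS1 rest on PC3, since DU145 had 0 and 2 counts of each.

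Between the lines 83 of the 96 pathway genes were called, 48 higher and 35 lower in PC3. Of all genes tested 66.0% were called, 33.1% higher and 32.9% lower in PC3, and these shares also stand beside the list counts that follow. The share called was higher in the lists than in the table, and the lists were chosen with earlier results of these data known. Of the 6 genes that process VEGFC or its relatives, ADAMTS3, the protease that cleaves VEGFC, was higher in PC3 (17 and 12 counts in DU145, 826 and 1010 in PC3). CCBE1, its cofactor, was lower in PC3 (665 and 712 counts in DU145, 128 and 158 in PC3), as were FURIN, PCSK6 and PCSK7, while PCSK5 was not called. Of the 7 class 3 semaphorins, neuropilin ligands, 6 were higher in PC3 and SEMA3C was lower. SEMA3B went from 84 and 81 counts (DU145) to 1055 and 1211 (PC3), and SEMA3C from 5254 and 4341 to 682 and 921. Among the plexins and partners 4 of 6 were higher in PC3 and none lower, from a log2 difference of 0.57 for PLXND1 to PLXNA4 (2 and 0 counts against 63 and 75).

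PDGFRA, the receptor of PDGFA, was at 0 in both DU145 libraries and at 238 counts in each PC3 library, at least 97.0-fold higher between the control libraries, and PDGFB was lower in PC3 (log2 difference -1.70 ± 0.20, adjusted p = 2.61e-06, edgeR). Of 5 FGF family genes tested 3 were higher and 2 lower in PC3. They ran from FGF12 (141 and 163 counts against 2 and 4) to FGF13 (2 and 0 against 50 and 103). Whether each of these acts on an FGF receptor was not tested. Of 9 FGF receptors and coreceptors 1 was higher (FGFR4, 0.55) and 7 were lower, down to -3.38 for FGFR3. The angiopoietin ANGPT1 was higher in PC3 (0 and 2 counts in DU145, 287 and 368 in PC3) and ANGPT2 lower (30 and 40 against 5 and 6). Unlike ANGPTL4, the 3 other angiopoietin-like genes tested were higher in PC3, from 0.70 for ANGPTL6 to 2.97 for ANGPTL2. CD47, a receptor of THBS1, was higher in PC3 by 0.81 on the log2 scale, and THBS3 by 0.77.

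Of 12 other secreted angiogenic factors 8 were higher in PC3, up to PTN (pleiotrophin, 0 and 4 counts in DU145, 897 and 1180 in PC3), and 4 were lower, down to EDN1 (endothelin 1, -1.77). Of 6 genes tested from a list labelled as inhibitors 2 were higher in PC3, ADAMTS1 (0 and 2 counts against 1185 and 1977) and VASH2 (1.06). The label is that of the list, and VASH2 is not taken here as an inhibitor. The 3 lower ones went down to -5.41 for COL4A3. Whether each listed gene inhibits vessel growth was not tested. In the HIF pathway VHL was higher in PC3 by 1.12 and ARNT2 had the lowest value, -6.04, with 2 of 9 genes higher and 5 lower. Hypoxia targets went both ways, 8 higher and 3 lower of 11, from -2.52 for SLC2A1 to 3.78 for CA12. Of 8 PPAR receptors and targets 2 were higher and 3 lower, among them FABP4 at 0 in both DU145 libraries and 250 and 244 counts in PC3, and ACADVL at -1.24.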

How the data were processed

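Total RNA of 4 libraries was rRNA-depleted and sequenced from strand-specific libraries with molecular identifiers, per the labels' protocols. The authors deposited raw counts per gene and RPKM. The deposited RPKM equalled counts divided by exon-union length and library total within a relative difference of 8.68e-14. Tools listed in the submitters' processing notes were Trimmomatic 0.36, Subread 1.5.1, featureCounts and edgeR 3.12.1, with build hg38. Aligner, strand setting and handling of identifiers were not given in the sources used here.

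Counts were fitted with edgeR 4.0.16 (R 4.3.3), limma 3.58.1 and DESeq2 1.42.0 serving as alternatives. The fit was also run on simulated counts, with a common dispersion for all genes and equal plasmid folds in both lines. That run cannot show how the fit behaves where genes differ in dispersion or the lines disagree. The model had terms for line and plasmid, TMM scaling and a threshold of 0.05 on adjusted p, over the 21731 genes kept by edgeR's filter on low counts with plasmid as group. Alternatives were other scalings, no filter, DESeq2, limma-voom, the legacy quasi-likelihood fit, halved counts, genes sharing no exon base, no line term and leaving out each library. The prior degrees of freedom were 13.4. The pairing comes from the labels: libraries of the same line form a block. SE is the size of the log2 difference over the square root of F. Within-line log2 ratios used a prior count of 2. Members and lists were chosen with earlier results of these data known. Pathway genes named are the highest and lowest of each list in each comparison and those called between the plasmids in an alternative fit. Others were picked outside this rule, among them the VEGFC processing genes CCBE1, FURIN, PCSK5 and PCSK7. Exon overlaps were taken from the deposited coordinates and transcript lengths from GENCODE 29. Some marker genes of the lines are not reported here.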

Additional observations from a re-analysis of the deposited data

Results flagged for a closer look

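The log2 ratio of circ0003553 to control for NRP1 differed in sign between the 2 lines, at -0.0787 in DU145 and 0.136 in PC3. Both were small, far under the 2-fold cut, and the fitted log2 difference was 0.03 ± 0.10 (SE, n = 2 for each plasmid). At 7046 counts or more in each library, counting intervals are narrow. Both counting intervals exclude equality, also with halved counts (ratio 0.905 to 0.991 in DU145 and 1.08 to 1.12 in PC3). The difference between the lines was not tested, since each group is 1 library, and the intervals cover counting error only.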

How the results depend on the processing

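VEGFC kept its direction under 9 alternatives and was called in 6. Of the other members only ANGPTL4 was called in any alternative of the plasmid comparison, in 1 of 8. The number of genes called between plasmids, 101 in the fit as reported, was 62 with DESeq2, 53 with legacy quasi-likelihood, 26 with limma-voom, 9 with low counts unfiltered, 48 among 10797 genes that share no exon base, and 0 without the cell line as replicate block (26 at an unadjusted p under 0.05). Between the lines 14332 genes were called and 7040 among genes sharing no exon base, where fewer were tested. Apart from the smaller gene set, the cause of these changes was not tested. Reversed signs were found for these genes. VEGFB between the lines went from 0.01 to -0.0658 with library totals, -0.00613 with halved counts and -0.0202 among genes sharing no exon base, and PDGFA from 0.06 to -0.0102 with library totals. Between plasmids ADAMTS3 went from -0.01 to 0.00991 with library totals, 0.0121 without a filter, 0.00292 with limma-voom, 0.000599 with halved counts and 0.0229 without the block, FGF5 to -0.0142 without the block and KDR to 0.84 with DESeq2. Leaving out 1 library leaves no residual degree of freedom and so gives values without a test. The log2 plasmid difference then ran from 0.71 to 0.84 for VEGFC, 0.80 to 0.82 for ANGPTL4, 0.09 to 0.93 for PDGFA and -0.08 to 0.14 for NRP1, the ends being the ratios of 1 line alone. The length alternative was chosen after seeing the data. Depth limits NRP2 most, with 16 and 20 counts in DU145 and a counting interval of 0.661 to 2.77 for the plasmid ratio there.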

Other observations

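The 3 genes whose log2 levels over the 4 libraries lay nearest to VEGFC, by root mean square difference after centring among 12996 genes whose mean log2 CPM reached 2, were MYPN (0.148), IFI16 (0.185) and CFAP70 (0.189). IFI16 was counted 267 and 538 times in DU145 and 1547 and 2993 times in PC3, and its log2 plasmid difference was 0.87 ± 0.12 (adjusted p = 0.0033, edgeR). The likeness rests on 4 libraries of 2 lines and is a description.

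Genes on the other strand shared exon bases with 6 of the 10 members, and ANGPTL4 shared only 1 base, with RAB11B-AS1. Of all 35211 genes, 38.13% shared exon bases with another gene. RP1-261G23.7, 188 bases that lie wholly within exons of VEGFA, was counted 5651 and 5475 times in DU145 and 1643 and 1768 times in PC3, between 22.1% and 23.4% of the VEGFA count in each library. Its deposited 238 to 799 RPKM exceeded the 13.6 to 46.7 RPKM of VEGFA itself. RP11-342D11.2, with 561 of its 781 bases within exons of NRP1, had 20.9% to 21.8% of the NRP1 count. Reads of the 2 strands cannot be told apart in these counts.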
